A study of Mus musculus with 6 samples.

Results

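The genes described here are 10 genes of cytotoxic granules and natural killer (NK) cell receptors, namely Gzma, Gzmb, Prf1, Nkg7, Klrd1, Klrk1, Klre1, Klrb1c, Ncr1 and Eomes. They were chosen by name, and all 10 were found among the 24421 genes of the table. All 10 also passed the filter on low counts, which left 13010 genes for testing. Poly(A) RNA sequencing was done on cells sorted as dendritic cells from the bone marrow of C57BL/6 mice. The tested mice are labelled TCL, a mouse form of chronic lymphocytic leukaemia (CLL), and came from an adoptive transfer model, in which leukaemic cells are transplanted into recipients. The mice they were set against are labelled wild type (WT). There were 3 libraries per group, TCL libraries 4, 8 and 10 and WT libraries 3, 7 and 9, with 17158819 to 25674314 reads counted to genes in each. Ages, the sort markers, the donor line of the leukaemia and whether animals were pooled are not stated, so p-values measure the spread between these libraries, which may be partly technical.

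NK cells are innate lymphocytes that kill target cells by releasing granules. Perforin, encoded by Prf1, opens the target membrane, and the granzymes, serine proteases such as those encoded by Gzma and Gzmb, enter and start cell death. Whether a granule is released is set by the balance of activating and inhibitory surface receptors, many of them lectin-like receptors encoded side by side in the NK gene complex of mouse chromosome 6. Several of these genes are also read by cytotoxic T cells, and some by other leukocytes.

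The 10 genes did not move together. Gzmb rose in TCL, Klrd1 and Klrk1 fell, and for the other 7 the adjusted p of edgeR's quasi-likelihood test was not below 0.05. Among all tested genes 4.70% passed, 2.04% higher and 2.67% lower in TCL. Of the 10 genes 5 had groups that did not overlap, Gzma and Gzmb higher and Klrd1, Klrk1 and Klre1 lower, where 28.2% of all tested genes had such groups (14.1% higher and 14.2% lower). The median log2 fold change of the 10 genes was 0.12, against 0 for all tested genes. The genes taken to mark NK cells were Ncr1, Klrb1c, Eomes, Klre1 and Klra8. Of these, Ncr1, Klrb1c and Eomes had log2 fold changes between 0.11 and 0.18 with overlapping groups. Klra8, with 76 reads in all 6 libraries together, had 0.12 (standard error 0.90) and overlapping groups. Klre1 had -1.07 (standard error 0.37), lower in TCL without overlap. In bulk libraries, fewer cells of a type and less RNA per cell cannot be told apart.

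**Figure D1:**
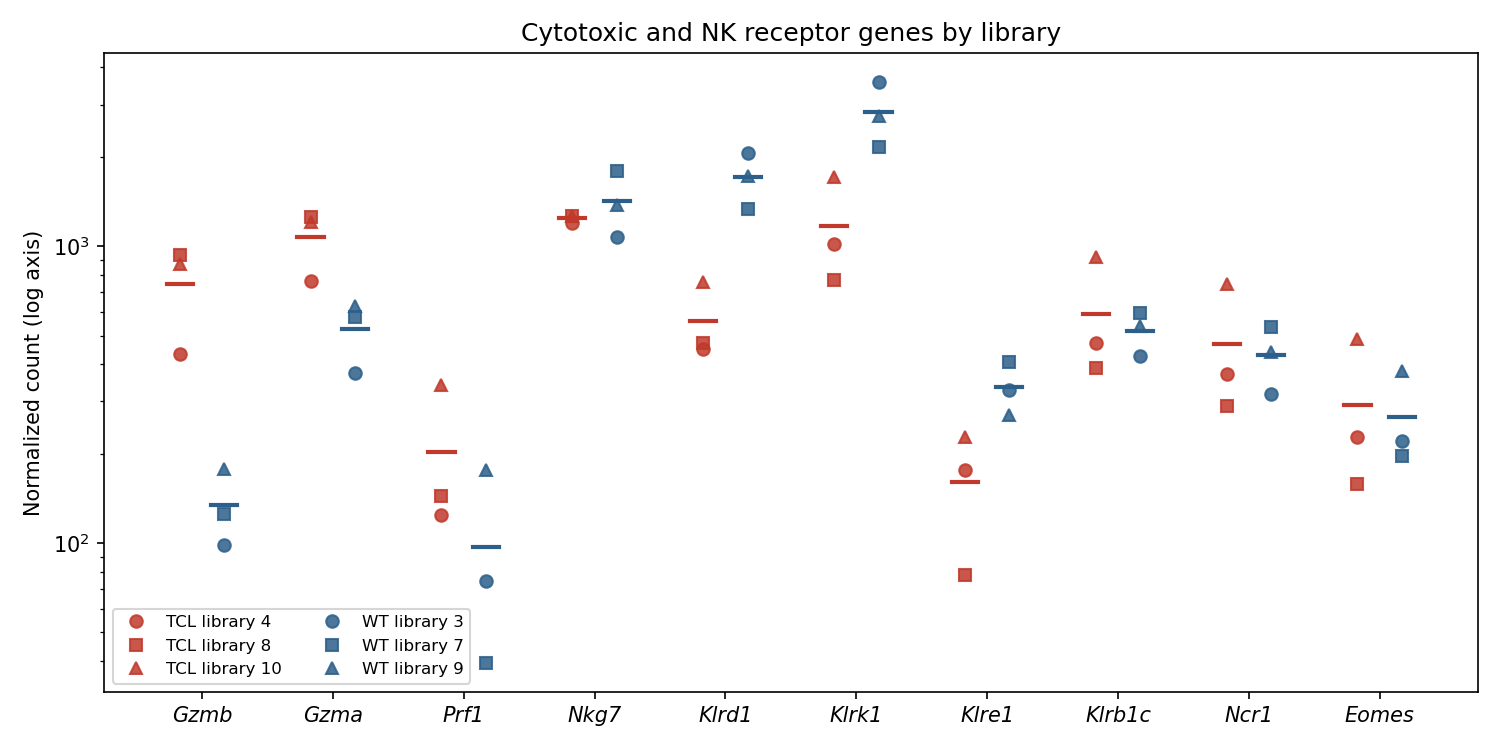
Normalized counts (log axis) of the 10 genes in each library. Points are single libraries, TCL in red left of WT in blue, and bars are group means (n = 3 each). Gzmb lies at 433 to 934 in TCL and 98.1 to 178 in WT, while the groups of Klrb1c, Ncr1 and Eomes overlap.

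Upstream sequences are shown for 3 of the genes whose groups did not overlap, Gzmb and Gzma, higher in TCL, and Klrk1, lower. Of these Gzma missed the threshold, with an adjusted p of 0.0512 in edgeR's test. Klre1, also lower without overlap, had windows too but is not shown. The sequences run from 250 bases before to 50 bases after the start in RefSeq (GRCm38.p6). They lie at chr14:56262285-56262584 for Gzmb, chr13:113100932-113101231 for Gzma and chr6:129623815-129624114 for Klrk1, all on the minus strand. Of the 10 genes 9 had such a window, and Klrd1 had none. Capitals mark matches to any of 4 motifs, searched on both strands: the T-box half-site GTGTGA, the Runx site TGTGGT, the STAT site TTCNNNGAA and the AP-1 site TGANTCA.
Gzmb: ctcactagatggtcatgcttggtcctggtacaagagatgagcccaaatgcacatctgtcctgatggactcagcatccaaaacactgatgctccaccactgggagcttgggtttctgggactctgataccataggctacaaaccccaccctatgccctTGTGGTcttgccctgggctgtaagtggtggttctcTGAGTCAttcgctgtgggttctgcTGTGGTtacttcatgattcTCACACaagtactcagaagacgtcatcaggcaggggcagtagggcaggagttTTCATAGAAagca
Gzma: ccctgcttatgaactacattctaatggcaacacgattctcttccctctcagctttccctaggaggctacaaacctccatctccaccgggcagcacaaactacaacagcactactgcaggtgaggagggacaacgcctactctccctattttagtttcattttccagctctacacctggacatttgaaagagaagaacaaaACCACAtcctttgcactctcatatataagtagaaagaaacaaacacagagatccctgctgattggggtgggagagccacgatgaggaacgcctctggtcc
Klrk1: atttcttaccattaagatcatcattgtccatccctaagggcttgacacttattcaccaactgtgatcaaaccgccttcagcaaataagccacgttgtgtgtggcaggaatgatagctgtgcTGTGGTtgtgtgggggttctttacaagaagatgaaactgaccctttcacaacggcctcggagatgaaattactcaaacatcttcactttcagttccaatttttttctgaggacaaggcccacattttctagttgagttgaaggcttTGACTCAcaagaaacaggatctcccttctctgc
The Gzmb window held 2 Runx matches, 1 T-box match, 1 AP-1 match and 1 STAT match. The Gzma window held 1 Runx match, and the Klrk1 window 1 Runx and 1 AP-1 match. A Runx match was found for 8 of the 9 genes with a window, against 16.8% of 32851 windows of the same length over all genes. Klre1 and Ncr1 had 2 windows each, and a gene was counted if any of its windows matched. The counts of genes and the shares of windows given here are therefore not the same measure. T-box factors, the family of Eomes, have a half-site in 14.5% of all windows and in those of 4 of the 9 genes, Gzmb, Nkg7, Klre1 and Ncr1. The STAT site stands in 8.3% of all windows and in those of Gzmb and Nkg7, and the AP-1 site in 7.81% and in those of Gzmb and Klrk1. Eomes was the gene whose window held none of the 4 motifs. The Gzmb window lies wholly upstream of the GENCODE gene, whose outer end is at 56262260.

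Among the granule proteins, Gzmb changed most. This gene encodes granzyme B, a protease that cleaves caspases in the target cell, and lies at chr14:56258838-56262260 (GRCm38, minus strand). It had normalized counts of 433, 934 and 868 in TCL libraries 4, 8 and 10, against 98.1, 125 and 178 in WT libraries 3, 7 and 9. Every TCL library stood more than 2 times above every WT library. The log2 fold change was 2.46 (standard error 0.34, adjusted p 0.00481 in edgeR's quasi-likelihood test), a 5.52-fold rise. It was called under each of the 13 other settings and libraries left out, with log2 fold changes of 2.26 to 2.74.

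Gzma, the gene of granzyme A, a tryptase of the same granules, lies at chr13:113093825-113100981 on the minus strand. Its normalized counts were 762, 1254 and 1211 in TCL libraries 4, 8 and 10, against 374, 577 and 628 in WT libraries 3, 7 and 9. The groups did not overlap, but TCL library 4 lay close to WT library 9. The log2 fold change of 1.02 (standard error 0.25) missed the threshold with an adjusted p of 0.0512 in edgeR's test. It passed with DESeq2 (adjusted p 0.00292), no filter (0.0175), scaling to library size only (0.0477) and the fit without TCL library 4 (0.0433).

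Prf1 encodes perforin and lies at chr10:61297833-61304680 on the plus strand. It was the lowest of the 10 genes by mean normalized count, with 124, 144 and 340.5 in TCL libraries 4, 8 and 10 and 74.5, 39.4 and 176 in WT libraries 3, 7 and 9. WT library 9 lay above 2 of the TCL libraries, so the groups overlapped. At 1.05 the log2 fold change had a standard error of 0.55 (adjusted p 0.294 in edgeR's test). Without single libraries it ran from 0.46 to 1.82, and no setting called it.

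Nkg7, a membrane protein of cytotoxic granules needed for their release, lies at chr7:43437073-43438249 on the plus strand. It had normalized counts of 1196, 1266 and 1263 in the 3 TCL libraries, against 1071, 1796 and 1376 in WT libraries 3, 7 and 9. The TCL values lay inside the WT range. The change was -0.20 on the log2 scale (standard error 0.19, adjusted p 0.573 in edgeR's test), and 0.016 without WT library 7.

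**Figure D2:**
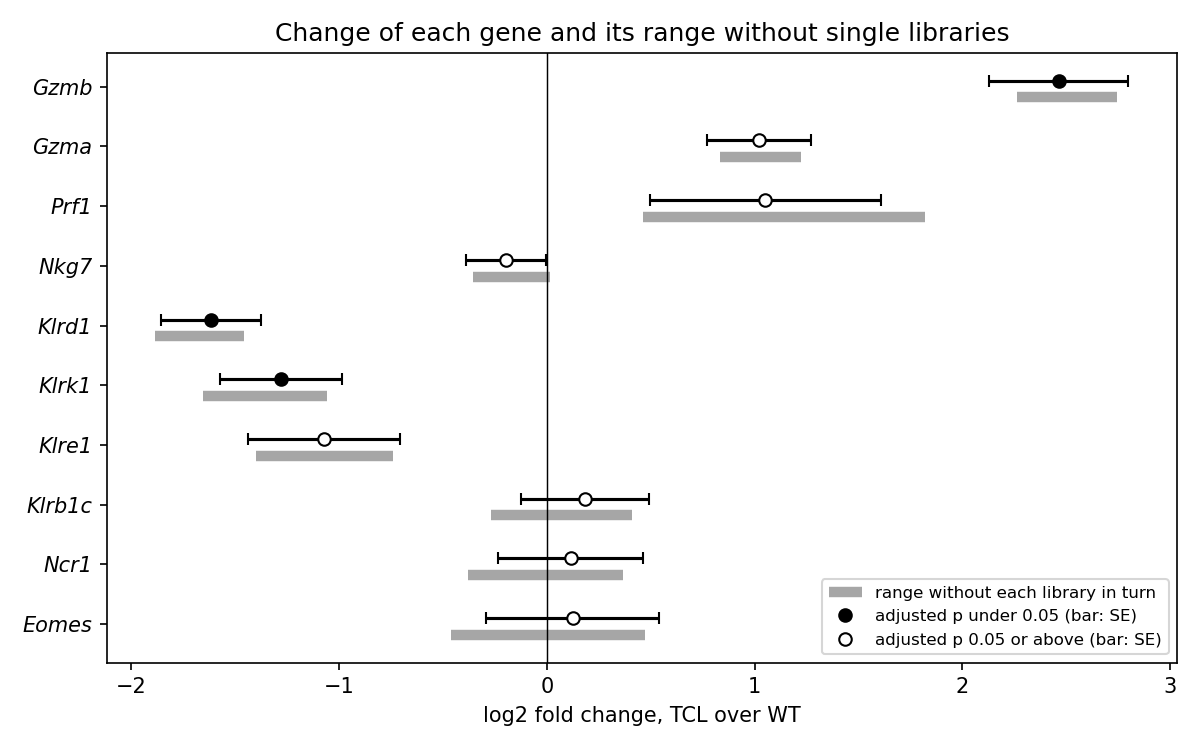
The log2 fold change of each gene, TCL over WT, with its SE (circles with bars, filled where the adjusted p was under 0.05) and the range of values when each library in turn was left out (grey). Gzmb, Klrd1 and Klrk1 are filled, and the grey ranges of Nkg7, Klrb1c, Ncr1 and Eomes cross 0.

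Of the 4 lectin-like receptor genes among the 10, Klrd1 and Klrk1 fell, and Klre1 and Klrb1c did not pass the test. Klre1, Klrd1 and Klrk1 lie next to each other within 45.96 kb, and Klrb1c lies 789 kb away from Klre1. Klrd1 encodes CD94, the partner of NKG2 chains in a receptor for the class I-like molecule Qa-1, and lies at chr6:129591782-129598775 on the plus strand. Its normalized counts were 451, 472 and 757 in TCL libraries 4, 8 and 10, against 2058, 1338 and 1729 in WT libraries 3, 7 and 9. The highest TCL library stayed well below the lowest WT library. Klrd1 fell by 1.62 on the log2 scale (standard error 0.24, adjusted p 0.00727 in edgeR's test), 3.07-fold lower, and was called under all 13 other settings and libraries left out.

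Klrk1 encodes NKG2D, an activating receptor for stress-induced ligands, and lies at chr6:129610323-129623864 on the minus strand. It had the highest mean normalized count of the 10 genes, with 1020.4, 771 and 1716 in TCL libraries 4, 8 and 10, against 3573, 2152 and 2753 in WT libraries 3, 7 and 9. TCL library 10 came nearest to WT, and the groups did not overlap. Klrk1 fell by 1.28 on the log2 scale (standard error 0.29, adjusted p 0.0411 in edgeR's test), 2.43-fold lower. The call was lost without WT library 3 (adjusted p 0.141), WT library 7 (0.0519), WT library 9 (0.0769) or TCL library 4 (0.135).

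Klre1 encodes a receptor that forms pairs with the products of Klri1 and Klri2, and lies at chr6:129577905-129585827 on the plus strand. It had normalized counts of 175, 77.9 and 227 in TCL libraries 4, 8 and 10, against 329, 408 and 269.6 in WT libraries 3, 7 and 9. The groups did not overlap, with TCL library 10 near WT library 9. Its log2 fold change was -1.07 (standard error 0.37), with an adjusted p of 0.129 in edgeR's test and of 0.0426 in DESeq2.

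Klrb1c encodes NK1.1, the antigen by which NK cells of C57BL/6 mice are usually stained, and lies at chr6:128778485-128789215 on the minus strand. Normalized counts were 470.4, 389 and 918 in TCL libraries 4, 8 and 10, against 426, 595 and 537 in WT libraries 3, 7 and 9. TCL libraries held both the lowest and the highest value. Its change was 0.18 on the log2 scale (standard error 0.31, adjusted p 0.759 in edgeR's test), but -0.27 without TCL library 10. Klrb1c shares 413 exon bases on the same strand with the annotated gene Gm44511, and is one of a family of close copies, so its reads may be split. Gm44511 was not among the counted genes, so a split with it cannot be seen in these values.

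Ncr1 encodes NKp46, an activating receptor found almost only on NK cells and related innate lymphocytes, and lies at chr7:4337724-4345164 on the plus strand. It had normalized counts of 371, 288 and 745 in TCL libraries 4, 8 and 10, against 317, 535 and 439 in WT libraries 3, 7 and 9. The 3 WT values lay inside the TCL range. Its log2 fold change of 0.11 (standard error 0.35, adjusted p 0.872 in edgeR's test) turned to -0.06 when WT library 3 was left out and to -0.38 when TCL library 10 was.

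Eomes encodes a T-box transcription factor of mature NK cells and lies at chr9:118478212-118486132 on the plus strand. Its normalized counts were 228, 158 and 487 in TCL libraries 4, 8 and 10, against 221, 196 and 379 in WT libraries 3, 7 and 9. TCL library 10 was again highest and TCL library 8 lowest. On the log2 scale the change was 0.12 (standard error 0.41, adjusted p 0.885 in edgeR's test), with -0.049 without WT library 7 and -0.46 without TCL library 10. An annotated antisense gene, Gm33460, shares 118 exon bases with Eomes, and whether the counting used strand is not stated. Gm33460 was not among the counted genes either.

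The authors' deposited table gave an adjusted p under 0.05 to 5 of the 10 genes, and the share of all genes that passed there is not given here. These are the same 5 whose groups did not overlap, but both come from the same 6 libraries, so the match is no separate support. The adjusted p-values of the authors' deposited table were 1.354e-11 for Gzmb, 4.385e-08 for Klrd1, 0.000438 for Klrk1, 0.00354 for Gzma and 0.0484 for Klre1. DESeq2 on the recovered reads also called 5, where it called 9.92% of the genes it tested. TCL library 10 was the highest TCL library for 7 of the 10 genes, and TCL library 8 the lowest for 5.

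Per length, levels in CPM per kilobase of exon were ordered differently in the 2 groups. In TCL Nkg7 led with 62.6 ± 2.23 CPM per kilobase, followed by Gzma with 49.3 ± 12.6, Gzmb with 23.9 ± 8.79 and Klrd1 with 20.2 ± 6.24 (SD, n = 3 each). Of these neighbours, only the ranges of Gzmb and Klrd1 overlapped. In WT Nkg7 had 71.8 ± 18.7 CPM per kilobase and Klrd1 61.9 ± 12.96, with overlapping ranges, then Gzma 24.3 ± 6.16 and Klrk1 18.3 ± 4.59, which overlapped too. Gzmb had the third highest level in TCL and the eighth in WT, where its 3.17 to 5.73 CPM per kilobase overlapped Klre1 and Eomes. Prf1 was lowest in WT with 1.73 ± 1.27 CPM per kilobase, overlapping Eomes, and Klre1 was lowest in TCL with 2.11 ± 1.01 CPM per kilobase, overlapping Eomes and Prf1.

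Ratios within a library do not depend on scaling, so the reads of each gene were set against those of Ncr1. This gene was chosen after its values were seen. Klrb1c kept close to Ncr1, with 1.27, 1.35 and 1.23 reads per Ncr1 read in TCL libraries 4, 8 and 10 and 1.34, 1.11 and 1.22 in WT libraries 3, 7 and 9. Gzmb had 1.17, 3.24 and 1.17 reads per Ncr1 read in these TCL libraries, against 0.310, 0.233 and 0.406 in the WT libraries. Klrd1 had 1.22, 1.63 and 1.02 reads per Ncr1 read in TCL, against 6.50, 2.50 and 3.93 in WT. Klrk1 had 2.75, 2.67 and 2.30 reads per Ncr1 read in TCL, against 11.3, 4.02 and 6.27 in WT. The ratios of Gzma, Gzmb, Klrd1, Klrk1 and Klre1 did not overlap between groups, which held for 8.39% of all tested genes (3.42% higher and 4.97% lower in TCL). For each of these 5 the two-sided exact permutation test gave 0.1, the smallest p that 3 against 3 libraries allow. Groups that do not overlap always give this value, so the test adds no support. The ratios of Klrd1 and Klrk1 had SDs of 2.02 and 3.71 in WT, around means of 4.31 and 7.19. In TCL their SDs were 0.316 and 0.239, around means of 1.29 and 2.58. WT library 3, with the highest ratios, had the fewest Ncr1 reads, 268. The ratios of Gzma, Gzmb and Nkg7 went the other way, with SDs of 1.46, 1.19 and 1.35 in TCL and 0.180, 0.0862 and 0.137 in WT. These differences in spread were not tested.

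**Figure D3:**
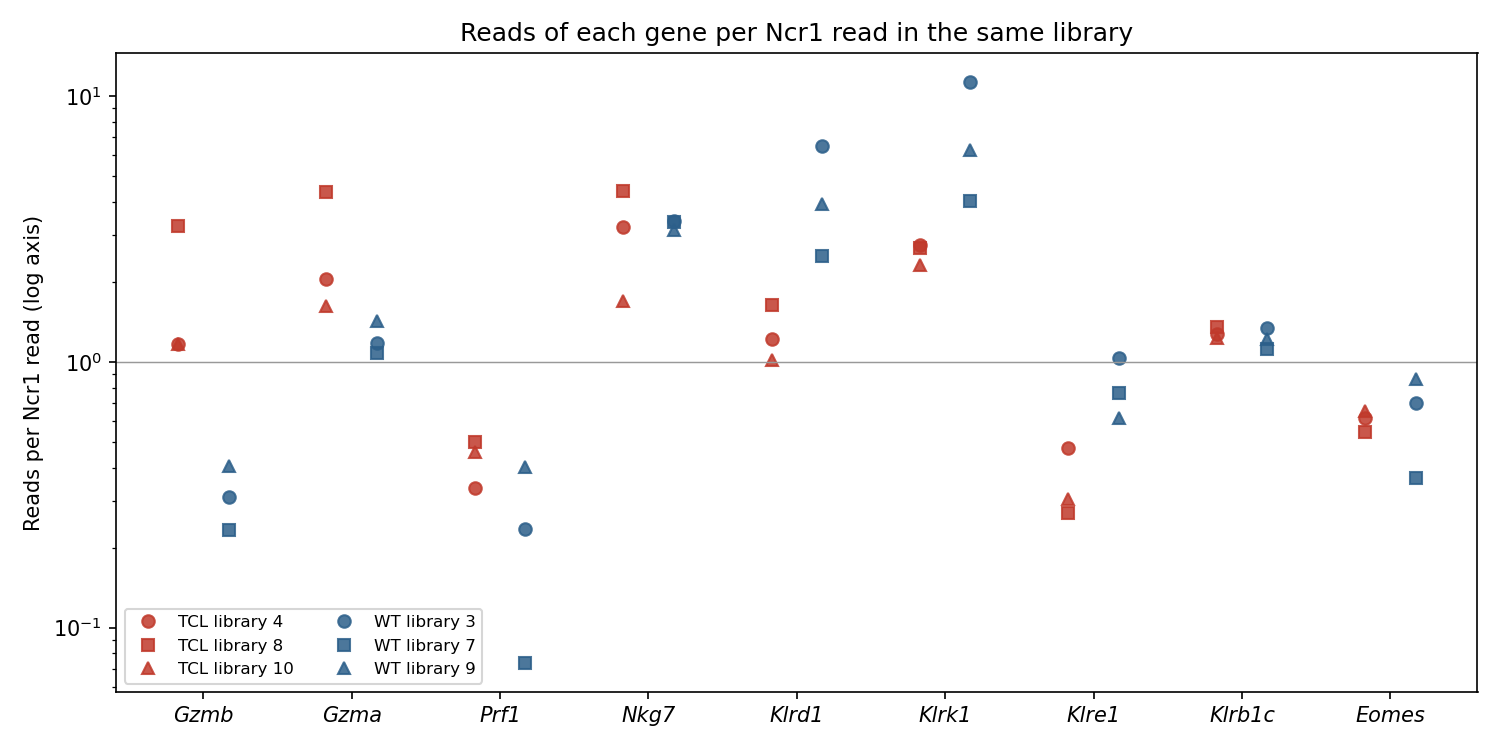
Reads of each gene per Ncr1 read in the same library (log axis), TCL in red left of WT in blue, with a line at 1. Klrb1c lies between 1.11 and 1.35 in all 6 libraries, Gzmb is higher in every TCL library, and Klrd1 and Klrk1 are lower.

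Of the Klr genes of chromosome 6, 20 were tested, among them the distant Klrg1. Klrd1 and Klrk1 were the 2 that passed, where 4.70% of all tested genes did. Of the 20 genes 5 were lower without overlap, against 14.2% of all tested genes. The 16 that are not among the 10 genes did not pass. Of these 16, 10 had log2 fold changes below 0, the median of all tested genes. Klrc1 and Klrc2, whose products pair with CD94 and which lie just beyond Klrk1, had log2 fold changes of -0.098 (standard error 0.40) and 0.76 (standard error 0.81). Klri1 and Klri2, the genes of the partners of KLRE1, had -1.28 (standard error 0.83) and -0.61 (standard error 0.43), with overlapping groups. Klra7 and Klra1, of the Ly49 receptor family, had lower TCL values without overlap, at log2 fold changes of -0.52 (standard error 0.22, adjusted p 0.210) and -0.79 (standard error 0.42, adjusted p 0.294). Genes of the Klra, Klrb1 and Klrc families are close copies, and their counts are uncertain.

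**Figure D4:**
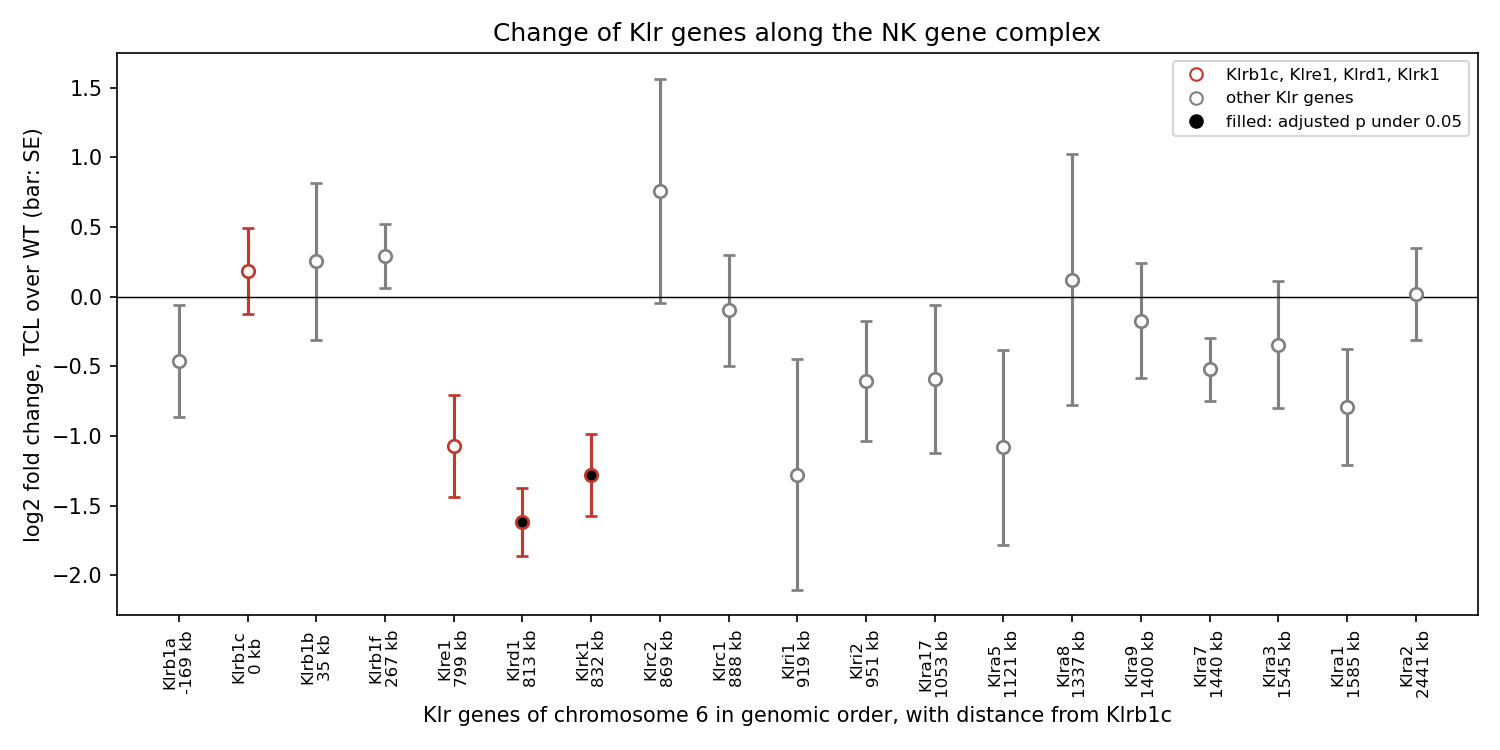
The log2 fold change (TCL over WT, with SE) of the tested Klr genes of chromosome 6, other than the distant Klrg1, in genomic order, each with its distance from Klrb1c. Filled circles passed an adjusted p of 0.05. Klrd1 and Klrk1 are filled at -1.62 and -1.28, with Klre1 at -1.07 beside them, and Klrb1c lies at 0.18.

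Of the wider list of NK receptor genes, 22 of 27 were tested and edgeR called 0, DESeq2 0 and limma 0, and 3 had an unadjusted p below 0.05. Without TCL library 8 edgeR called 1, lower in TCL. Their median log2 fold change was -0.13. Klra2, the most abundant after Fcgr3, had 2441, 5953 and 2493 normalized counts in TCL libraries 4, 8 and 10 and 4409, 3143 and 3123 in WT libraries 3, 7 and 9. TCL library 8, low for Ncr1, Klrb1c and Eomes, was high for Klra2 and for Klrb1b.

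Among 16 other granule and effector genes tested, 1 rose and 1 fell, with a median log2 fold change of 0.065. Xcl1, a chemokine of NK cells and T cells that draws type 1 dendritic cells, was the one that fell, with a change of -1.35 in log2 (standard error 0.22, adjusted p 0.0114 in edgeR's test). It had 482, 309.7 and 540.2 normalized counts in TCL libraries 4, 8 and 10, against 1048, 1016 and 1305 in WT libraries 3, 7 and 9. Stx11, a syntaxin needed for granule fusion, rose to 2042 ± 145 normalized counts in TCL, against 1181 ± 216 in WT (SD, n = 3 each). With any 1 of WT libraries 7 and 9 and TCL libraries 4 and 10 left out, 0 genes of the list rose, and with TCL library 8 left out 2 did. Ctsw, a cathepsin of cytotoxic cells, and Fasl, a death ligand, had log2 fold changes of -0.056 and -0.10, with overlapping groups. Ifng, the cytokine interferon gamma, had -0.25, also with overlap. Of the 16 genes 3 were higher and 3 lower without overlap, where 14.1% and 14.2% of all tested genes were. Beside Stx11 and Xcl1 these were Ctsc (0.41) and Rab27a (0.40), higher, and Ccl3 (-0.73) and Ccl5 (-0.45), lower, which did not pass the test.

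Of 13 tested adaptor and signalling genes 1 rose, Lcp2, the adaptor SLP-76, with a log2 fold change of 0.64 (standard error 0.15, adjusted p 0.0419 in edgeR's test). No gene of this list rose without any 1 of WT libraries 3, 7 and 9 or TCL libraries 4 and 10, and 2 rose without TCL library 8. Hcst and Tyrobp, the adaptors DAP10 and DAP12 that carry the signal of NKG2D, had log2 fold changes of -0.60 (standard error 0.27, adjusted p 0.230) and -0.31 (standard error 0.20, adjusted p 0.376). The groups of both overlapped. Fyn and Syk of the same list had 0.68 (standard error 0.17) and 0.62 (standard error 0.16), higher in TCL without overlap. Their adjusted p-values in edgeR's test were 0.0516 and 0.0649. Of the 13 genes 3 were higher and 0 lower without overlap, where 14.1% and 14.2% of all tested genes were. Of 14 transcription factor genes 1 rose, Nfil3, a factor of NK cell development, with 1246 ± 188 normalized counts in TCL and 544 ± 50.5 in WT. It was called in all 13 other settings and libraries left out. Tbx21, the gene of T-bet and a relative of Eomes, had a log2 fold change of 0.99 (standard error 0.44, adjusted p 0.220).

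In the list of cytokine and trafficking receptors, 1 of 17 tested genes rose and 1 fell. Il21r, the receptor of interleukin 21, a cytokine that acts on NK cells, T cells and B cells, rose to 3609, 3529 and 3720 normalized counts in TCL libraries 4, 8 and 10, against 1672, 1175 and 1285 in WT libraries 3, 7 and 9. S1pr1, a receptor for exit from tissue, fell by 1.78 on the log2 scale (standard error 0.36, adjusted p 0.0254 in edgeR's test). With any 1 of WT libraries 7 and 9 and TCL library 4 left out, 0 genes of the list fell. Without TCL library 8, 3 rose.

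Genes for the other side of the contact were measured in the same libraries. Of 10 tested ligands of NK receptors edgeR called 0, DESeq2 1 higher and 1 lower and limma 0, and 2 had an unadjusted p below 0.05. H2-T23, which encodes Qa-1, the ligand of CD94 receptors, had 7646 ± 553 normalized counts in TCL and 7839 ± 1483 in WT, a log2 fold change of -0.045 (standard error 0.17). Ulbp1, a ligand gene of NKG2D, had 116 reads in all 6 libraries together. Its log2 fold change was 2.30 (standard error 1.08, adjusted p 0.247 in edgeR's test). The groups did not overlap, but TCL library 4, at 19.0 normalized counts, lay close to WT library 3 at 16.6. Of 9 tested cytokines 2 rose, Il15ra and Il10, and 2 fell, Il18 and Ebi3. Il15ra, which presents interleukin 15 to NK cells, rose to 730.1 ± 99.0 normalized counts in TCL, against 281 ± 41.9 in WT. Il15 itself had a log2 fold change of -0.42 (standard error 0.23, adjusted p 0.305). Of this list 1 rose when any 1 of WT libraries 3 and 9 and TCL library 4 was left out. With any 1 of the WT libraries or TCL library 4 left out 0 genes of it fell, and 1 with TCL library 10 left out.

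Markers of other cells that carry cytotoxic genes were present as well. Of 17 tested T cell markers 1 rose, Cd8a, a chain of the CD8 co-receptor also found on some dendritic cells, with 340.5, 549 and 650.2 normalized counts in TCL libraries 4, 8 and 10 and 230.5, 208 and 241 in WT libraries 3, 7 and 9. Leaving out any 1 of the WT libraries or TCL library 10 ended this call. The T cell receptor chains Cd3d, Cd3e and Cd3g had means of 100.1, 64.8 and 155 normalized counts in TCL. In WT their means were 128, 39.4 and 175, so none of these chains was at 0. Cd3e was as low as 11.8 in WT library 3, and Cd40lg of the same list had 5 reads in all 6 libraries together. The summed level of the T cell list was 200.3 to 274 CPM in TCL and 231 to 283 CPM in WT. Cd4 was the most abundant gene of this sum, with means of 1772 normalized counts in TCL and 2643 in WT, far above the Cd3 genes. The part of T cells in the values of the 10 genes was not tested.

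Summed levels of the other cell type marker lists were lower in every TCL library than in any WT library for some lists and overlapped for others. The summed level of the 10 genes was 240.2 to 395 CPM in TCL and 362 to 397 CPM in WT. Conventional dendritic cell markers summed to 15879 to 36923 CPM in TCL, against 47779 to 63412 CPM in WT, and 5 of 12 fell, among them Cd209a and Clec9a. Leaving out WT library 3 left 1 of these calls, WT library 7 left 3, and WT library 9 or TCL library 4 left 2. Most of the sum came from Cd74, H2-Aa and H2-Ab1, with WT means of 640832, 250144 and 290576 normalized counts, and none of them was called. Ccr7, Itgax and Zbtb46 had log2 fold changes of 0.54, 0.12 and 0.17, with overlapping groups. Of 12 plasmacytoid markers edgeR called 0, DESeq2 2 and limma 0, and 5 had an unadjusted p below 0.05. Without TCL library 8 edgeR called 1, lower in TCL. Their sums were 1287 to 1559 CPM in TCL and 1130 to 1445 CPM in WT. Macrophage markers summed to 3773 to 5577 CPM in TCL and 10578 to 12215 CPM in WT, where 5 of 12 fell and Spic, a factor of red pulp and marrow macrophages, rose. That rise was lost without any 1 of the WT libraries or TCL library 4, and 8 fell without TCL library 8.

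B cell markers summed to 234 to 326 CPM in TCL and 396 to 941 CPM in WT, with 6 of 12 lower, and 2 when any 1 of WT libraries 7 and 9 and TCL libraries 4 and 10 was left out. Basophil and mast cell markers summed to 179 to 195 CPM in TCL and 261 to 739 CPM in WT, with 5 of 8 lower, and 0 when any 1 of those same libraries was left out. Neutrophil and monocyte markers summed to 16716 to 32308 CPM in TCL and 29298 to 58267 CPM in WT, with 1 of 12 lower, Ccr2, and 0 when any 1 of WT libraries 3 and 9 or the TCL libraries was left out. Of Klrd1, Klrk1 and Gzmb it cannot be told from these libraries which cells carried the RNA, and the part of these cell types in their values was not tested.

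**Figure D5:**
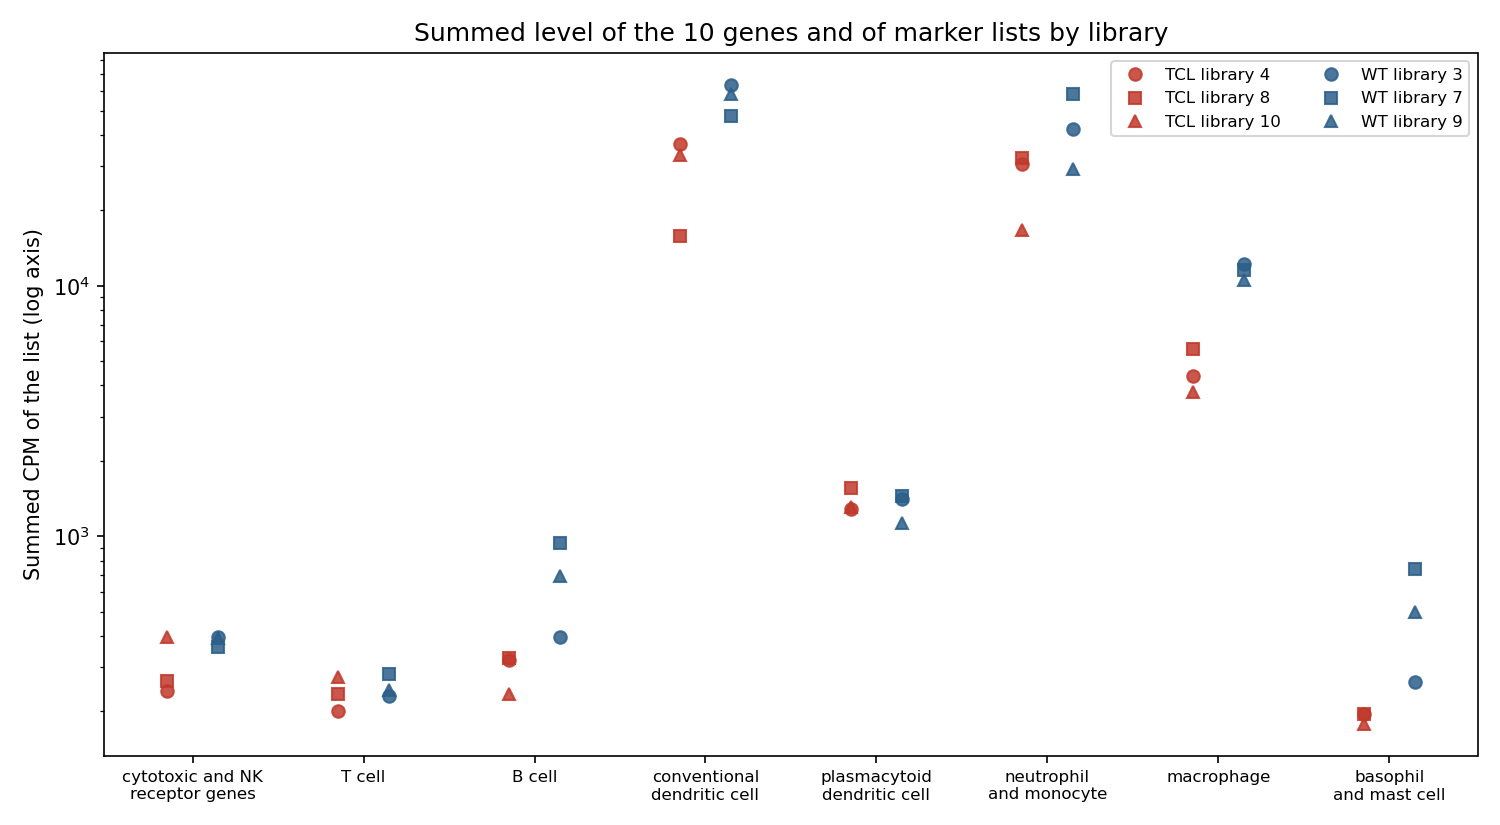
Summed CPM (log axis) of the 10 genes and of 7 marker lists in each library, TCL in red left of WT in blue. The sums of the conventional dendritic cell, macrophage, B cell and basophil lists are lower in every TCL library than in any WT library, while those of the 10 genes, T cells and plasmacytoid cells overlap.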

How the data were processed

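Cells sorted as dendritic cells from mouse bone marrow were sequenced, 3 TCL and 3 WT libraries. Tools listed in the submitters' processing notes, without roles, are DESeq2, HTSeq, STAR 2.4.2a and cutadapt, with the build mm10. The authors deposited 1 table of normalized counts, a signal that the values show to be counts divided by a size factor per library. The authors also deposited, per gene, adjusted and raw p-value columns and a log2 fold change, printed here only as theirs. Columns carry running numbers that are not the replicate numbers of the labels.

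All values (100%) came out as whole reads within a tolerance of 0.001 once divided by each library's smallest step, which gave back the reads, 17158819 to 25674314 per library. These reads were tested with edgeR 4.0.16 in R 4.3.3 (filterByExpr, TMM factors, glmQLFit and glmQLFTest), with Benjamini-Hochberg adjustment over all 13010 tested genes and a threshold of 0.05. The standard error was derived from the F statistic and the log2 fold change. The test was checked on simulated data. CPM uses effective library sizes, and CPM per kilobase divides by the union of GENCODE exons (GRCm38, which mm10 stands for). Group values are mean ± SD of the normalized counts. limma 3.58.1 was run with a trend on the deposited values, as log2 after adding a pseudocount of 1, and DESeq2 1.42.0 on the reads. Promoter windows are from RefSeq. PCR reads are not independent molecules.

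The 10 genes and the 14 other gene lists (221 entries, 216 found in the table) were chosen with earlier results of these data known. Named genes are the 10, up to 4 of each list with the smallest adjusted p, up to 2 of the highest mean CPM where a list had no call, and the 5 genes most and least like the mean profile of the 10, of which 1 is not reported here. Other genes named were chosen after their values were seen.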

Additional observations from a re-analysis of the deposited data

How the results depend on the processing

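Of 130 values of the 10 genes under other settings, 115 kept their direction and their side of the threshold, 4 lost and 5 gained the call, and 6 changed sign. The sign changes were all of genes that did not pass: Nkg7 without WT library 7 (0.016, with single-library values from -0.36), Klrb1c without TCL library 10 (-0.27, up to 0.41), Ncr1 without WT library 3 (-0.06) and TCL library 10 (-0.38, up to 0.37), and Eomes without WT library 7 (-0.049) and TCL library 10 (-0.46, up to 0.47). Klra2 also changed sign, with limma (-0.0855) and without WT library 7 (-0.06), WT library 9 (-0.06) and TCL library 8 (-0.54, up to 0.24). Of the 10 genes 3 changed, 1 higher and 2 lower. DESeq2 called 5, with 2 higher, and 2 were higher with no filter or with scaling to library size only. Without each library in turn 2 to 3 changed, 1 to 2 higher and 1 to 2 lower. Over all genes 612 changed, 265 higher and 347 lower. DESeq2 called 1442 (697 and 745), and 972 passed with no filter, 465 of them higher. Without each library 249 to 895 changed, 97 to 469 higher and 131 to 426 lower. In the fixed lists together 34 changed, 56 by DESeq2 and 13 to 45 without each library. The summed level of the 10 genes had a log2 ratio of -0.35, and -0.59 to -0.21 without each library. Scaling to library size only put 53.8% of all calls higher, against 43.3% with TMM factors. A robust quasi-likelihood fit, added after the data were seen, called 604 genes and the same number, 3, of the 10. The cause of these shifts was not tested. No paired analysis was possible because the columns carry no replicate number of the labels. Prf1 had 30 reads in WT library 7 and 63 in WT library 3, and Gzmb 83 and 95 reads in WT libraries 3 and 7, so counting error adds to the spread between libraries there.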

Other observations

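Over the 6 libraries, genes whose log2 CPM was most like the mean profile of the 10 genes included Aff1, Sbf1, Ddx17 and Rai1, with Pearson's r of 0.98 to 0.99 as a description. The least alike were Cox5b, Sys1, Psmd10, Smagp and Grpel1, with r of -0.98 to -0.96. The libraries share the 2 groups and their depths, and the 10 genes moved in different directions, so the mean profile is that of no single gene.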
